A study of Mus musculus with 10 samples.

Results

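Lymphoma cells of mice whose B cells carried both a NIK allele and a Notch2 allele were compared with pre-malignant B cells of the same genotype, across all genes. The members were chosen by title prefix: 2 lymphoma libraries and 2 doubly activated pre-malignant libraries, 4 of the 10 libraries of the series. Plasma cells are the antibody-secreting end stage of the B lineage. Their differentiation switches off B cell surface receptors through the repressor Blimp-1 (gene Prdm1) and enlarges the endoplasmic reticulum (ER) through Xbp1, the transcription factor of the unfolded protein response, which raises chaperones, translocation channels and transport vesicles. Marginal zone B cells are innate-like B cells of the spleen that need Notch2 signals, and NIK is the kinase that starts the noncanonical NF-kB pathway.

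The lymphoma libraries are labelled as lymphoma cells of lymphoma tissue whose genotype joins Rosa-NIKdeltaT3flSTOP and Rosa-Notch2ICN with CD19Cre. The doubly activated libraries have the same genotype and come from lymph node, and are labelled as pre-malignant precursors of marginal zone B cells. For levels set beside these, the series holds 2 libraries each of NF-kB-activated cells (Rosa-NIKdeltaT3flSTOP x CD19Cre), of cells labelled Notch-activated (Rosa-Notch2ICN x CD19Cre, marginal zone B cells) and of wild-type control precursors, each from lymph node and labelled pre-malignant. The mice were C57BL/6, the alleles sit in the Rosa locus and were switched on by Cre in B cells, and cells were sorted before RNA extraction. Age and sex are not given in the sources used here. Whether a group's libraries are of different mice is not labelled either, and every p-value therefore rests on library-to-library spread, which may be technical. Lymphoma and doubly activated libraries differ in tissue and in sorted cell type as well as in transformation, and these differences cannot be told apart.

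Lymphoma libraries held 23102081 and 21425408 estimated counts and doubly activated libraries 18791698 and 16380889. Levels are given as CPM, counts scaled to a common library size. Parentheses after them give the log2 fold change of lymphoma over doubly activated cells ± SE and its adjusted p. On principal components of log2 CPM over all 10 libraries, both lymphoma libraries lay at 85.2 and 86.2 on the second component (28.7% of the variance), against -11.4 and -10.5 for doubly activated libraries. Both lymphoma libraries used the same heavy and the same light chain V segment for most of their counts. Lymphoma values may thus be those of 1 clone sampled in both libraries, which was not tested. Ighv1-11 held 92.5% (95% Wilson interval 92.3% to 92.7%) and 92.3% (92.1% to 92.5%) of Ighv counts in lymphoma libraries, and the top segment of doubly activated libraries, Ighv1-26, held 6.38% (5.93% to 6.86%) and 7.39% (6.86% to 7.97%). Among Igkv counts, Igkv17-121 made up 90.8% (90.7% to 91.0%) and 91.7% (91.5% to 91.8%) in lymphoma libraries, and Igkv1-135 held 6.04% (5.65% to 6.46%) and 6.72% (6.26% to 7.21%) in doubly activated libraries. V segments of a family can be near-identical, and these intervals cover counting error only. The libraries labelled Notch-activated also stood apart from the rest and are called Notch-labelled throughout; their Notch2 level is given below.

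B cell genes were present in all 4 compared libraries, among them those described below for mature B cell identity. Cd79a, a signalling chain of the B cell receptor, had 1209 and 1086 CPM in lymphoma, against 1550 and 1585 CPM in doubly activated libraries and was lower in lymphoma (log2 fold -0.45 ± 0.09, adjusted p = 0.000875). The recombined alleles were checked by the genes they carry. Map3k14, which encodes NIK, had 153 and 153 CPM in lymphoma and 244 and 255 CPM in doubly activated libraries, with 103 and 129.6 CPM in control libraries, and was lower in lymphoma than in doubly activated cells (log2 fold -0.71 ± 0.10, adjusted p = 7.32e-05). Notch2 had 155 and 179 CPM in lymphoma, against 702 and 753 CPM in doubly activated libraries (log2 fold -2.13 ± 0.09, adjusted p = 1.98e-09), with 284 and 278 CPM in Notch-labelled and 652 and 689.7 CPM in control libraries. It was thus lower in lymphoma than in control cells (log2 fold -2.01, adjusted p = 2.5e-09), and the difference of doubly activated from control cells did not pass the test (log2 fold 0.12, adjusted p = 0.376). The Notch2 level therefore went against the genotype in lymphoma and in Notch-labelled libraries and did not show it in doubly activated ones. Heyl, which Notch induces, had 38.9 and 44.0 CPM in lymphoma and 23.3 and 25.6 CPM in doubly activated libraries and was higher in lymphoma (log2 fold 0.76 ± 0.14, adjusted p = 0.000499). Notch-labelled libraries held 50.9 and 44.1 CPM of it and control libraries 0.431 and 0.381 CPM, so Heyl went with the genotype in all 3 groups that carry the Notch2 allele. Reads of the alleles and of the endogenous genes fall on the same gene totals, so these levels do not show the alleles alone.

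Of 15583 genes tested with edgeR, 4065 (26.1%) were called higher in lymphoma and 3923 (25.2%) lower at an adjusted p under 0.05. Over 2-fold, 2050 genes (13.2%) were called higher and 1697 (10.9%) lower. Over 32-fold these counts were 236 and 189. The median log2 fold change of all tested genes was 0.01. These shares are the background against which each gene list is read. Every called gene named below had both lymphoma libraries on the same side of both doubly activated libraries. In sorted cells pooled as bulk RNA, fewer cells of a type and less RNA per cell cannot be told apart.

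**Figure D1:**
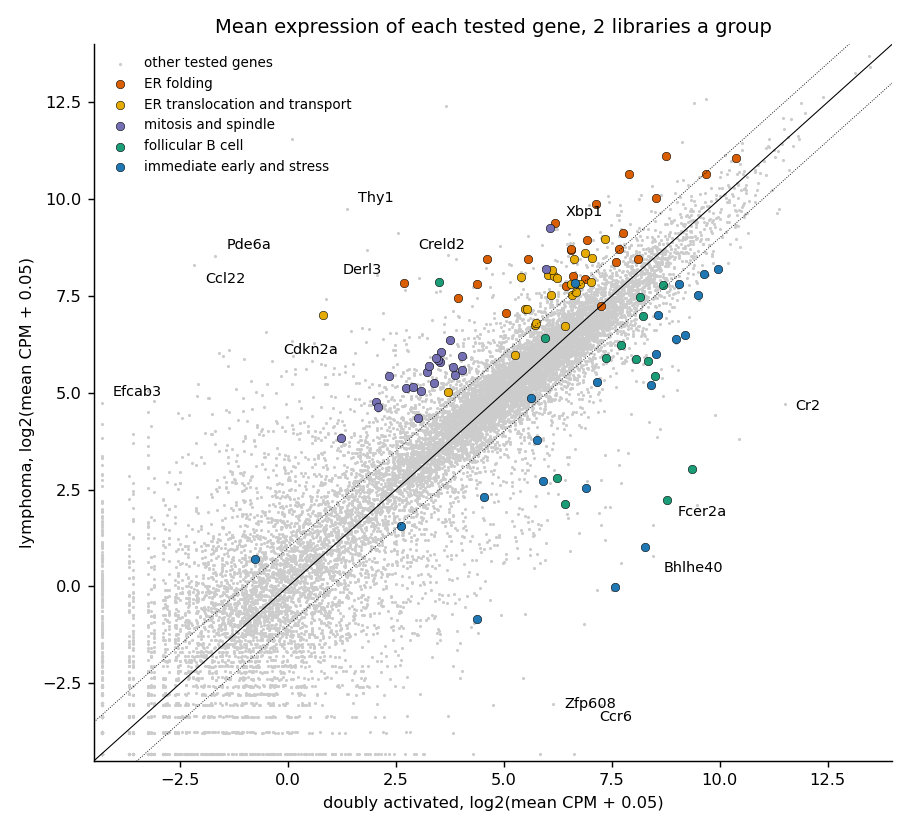
Mean level of each tested gene in lymphoma (vertical axis, log2 of CPM plus 0.05) against doubly activated libraries (horizontal axis, same scale), 2 libraries each, with members of several gene lists coloured and dotted lines at 2-fold. ER and mitosis genes lie mostly above the diagonal, immediate early and follicular genes mostly below it, and Ccl22 and Ccr6 near opposite corners.

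**Figure D2:**
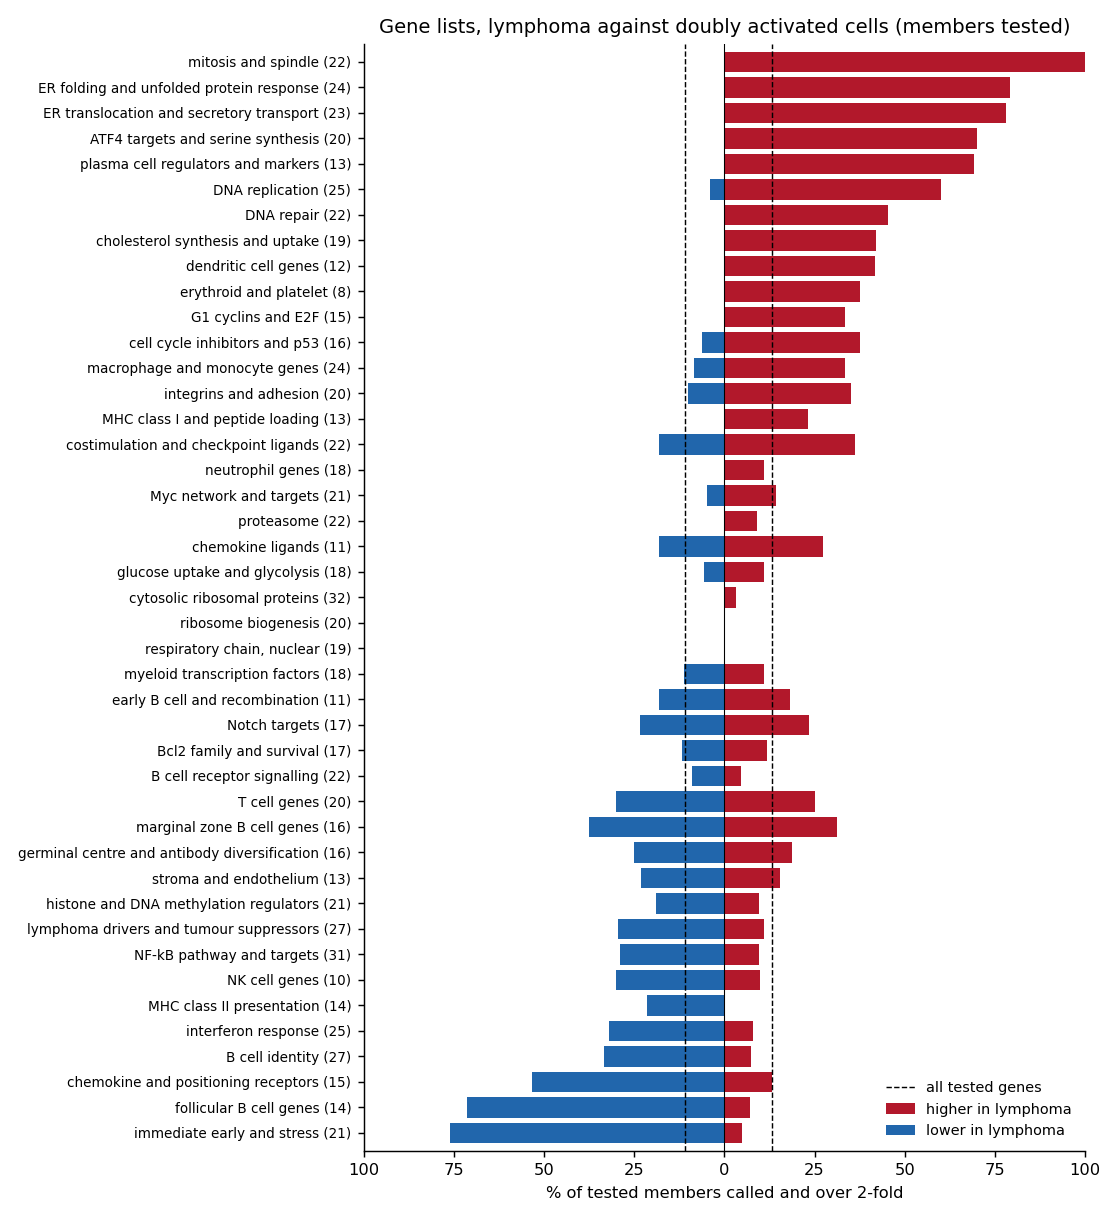
Share of the tested members of each gene list, in percent, called and over 2-fold higher (to the right) or lower (to the left) in lymphoma than in doubly activated libraries, with dashed lines at the shares of all tested genes, 13.2% higher and 10.9% lower. The mitosis list reaches 22 of 22 higher, and the immediate early list 16 of 21 lower.

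Genes of the ER rose in lymphoma almost without exception. Of 24 genes for folding and the unfolded protein response, 23 were called higher and 0 lower, 19 of them over 2-fold higher, against 26.1% and 13.2% of all genes, and their median log2 fold change was 2.03. Xbp1 (ENSMUSG00000020484, chromosome 11, 5520659 to 5525893 in GRCm38) had 669 and 663 CPM in lymphoma, against 74.8 and 70.0 CPM in doubly activated libraries (log2 fold 3.20 ± 0.09, adjusted p = 8.88e-11). Creld2 (ENSMUSG00000023272, chromosome 15, 88819646 to 88826683 in GRCm38), an ER-resident disulfide isomerase, had 359 and 336 CPM in lymphoma, against 25.4 and 23.4 CPM in doubly activated libraries (log2 fold 3.83 ± 0.09, adjusted p = 4.53e-11). Derl3, a channel component of ER-associated degradation, had 228 and 226 CPM in lymphoma, against 7.57 and 5.17 CPM in doubly activated libraries (log2 fold 5.14 ± 0.15, adjusted p = 2.12e-10). Control libraries held 82.7 and 94.0 CPM of Xbp1, 25.4 and 29.2 CPM of Creld2 and 9.84 and 9.19 CPM of Derl3. Manf, a secreted ER stress factor, had 366 and 334 CPM in lymphoma, against 50.5 and 43.0 CPM in doubly activated libraries (log2 fold 2.90 ± 0.09, adjusted p = 3.22e-10). The sensor kinase and RNase Ern1, which splices the Xbp1 message, had 207 and 241 CPM in lymphoma, against 19.3 and 22.3 CPM in doubly activated libraries (log2 fold 3.43 ± 0.12, adjusted p = 6.86e-10). The sensor Atf6 had 229.7 and 261 CPM in lymphoma, against 114 and 122 CPM in doubly activated libraries (log2 fold 1.06 ± 0.09, adjusted p = 6.71e-07). Transcripts of the sensors, the transcription factor and the other ER genes named so far thus stood higher in both lymphoma libraries.

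Among chaperones, Hsp90b1 (GRP94) had 2199 and 2181 CPM in lymphoma, against 450.0 and 410.1 CPM in doubly activated libraries (log2 fold 2.35 ± 0.09, adjusted p = 1.1e-09). Hspa5 (BiP), the main ER chaperone, had 1652 and 1558 CPM in lymphoma, against 759 and 878 CPM in doubly activated libraries (log2 fold 0.97 ± 0.15, adjusted p = 0.000246). Hspa5 was already abundant in doubly activated libraries. Edem1, which draws misfolded glycoproteins into degradation, had 1545 and 1636 CPM in lymphoma, against 225 and 249 CPM in doubly activated libraries (log2 fold 2.75 ± 0.10, adjusted p = 7.39e-10). Sdf2l1, a partner of the BiP cycle, had 183 and 167 CPM in lymphoma, against 14.7 and 15.9 CPM in doubly activated libraries (log2 fold 3.52 ± 0.11, adjusted p = 3.22e-10). The smallest called rise of the list was that of Syvn1, the ubiquitin ligase of ER-associated degradation, with 358 and 339 CPM in lymphoma, against 279 and 267 CPM in doubly activated libraries (log2 fold 0.35 ± 0.09, adjusted p = 0.0067). This call was lost without doubly activated library 2 (0.0551), where the number in parentheses, here and after other lost calls, is the adjusted p under that alternative. The exception in the list was Dnajb9, the BiP cochaperone that restrains Ern1, with 147 and 155 CPM in lymphoma and 118 and 184 CPM in doubly activated libraries (log2 fold 0.002 ± 0.57, adjusted p = 1). Its doubly activated libraries lay on either side of both lymphoma libraries.

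Many of these ER genes share sequence elements in their promoters, which are shown because the genes moved together. RefSeq promoters of GRCm38.p6, running 250 bases before to 50 after the start, were found for 21 of the 24 genes. ER stress element I, searched on both strands as CCAAT, 9 bases of any kind and CCACG, was in 10 of these 21 (47.6%), against 37 of 27025 promoters (0.137%). ER stress element II (ATTGG, 1 base, CCACG) was in 2 of 21 (9.52%), Dnajb11 and Herpud1, against 12 of 27025 (0.0444%). As background, element I was first described in promoters of ER chaperone genes and element II in that of Herpud1. Such genes are members of this list, so these shares describe the choice of list and are not a result of these data. The RBPJ core, to which Notch complexes bind (TGGGAA, both strands), was in 10 of the 21 promoters and in 7651 of 27025 (28.3%). Each line gives the gene, its place in GRCm38.p6 (counted from 1), the gene's strand and the bases on that strand 5′ to 3′, with the element in capitals. Creld2 is given over the 250 bases before its start, and the others with 12 bases on either side of the element.
Creld2, chr15:88819396-88819645, + strand: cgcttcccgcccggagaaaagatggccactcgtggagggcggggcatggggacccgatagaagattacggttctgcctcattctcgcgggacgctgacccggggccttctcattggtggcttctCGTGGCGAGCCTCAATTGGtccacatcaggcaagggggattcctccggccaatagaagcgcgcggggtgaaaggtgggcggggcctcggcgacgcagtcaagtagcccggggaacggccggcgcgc
Derl3, chr10:75893230-75893272, + strand: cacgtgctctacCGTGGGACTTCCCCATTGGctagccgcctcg
Hsp90b1, chr10:86705521-86705563, - strand: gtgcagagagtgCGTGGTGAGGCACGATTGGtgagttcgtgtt
Hsp90b1, chr10:86705626-86705668, - strand: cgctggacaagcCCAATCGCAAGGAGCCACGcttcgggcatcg
Hspa5, chr2:34772013-34772055, + strand: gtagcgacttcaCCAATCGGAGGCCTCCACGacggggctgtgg
Calr, chr8:84847063-84847105, - strand: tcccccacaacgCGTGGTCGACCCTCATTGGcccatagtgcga
Canx, chr11:50325788-50325830, - strand: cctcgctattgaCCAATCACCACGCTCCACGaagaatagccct
Pdia6, chr12:17266479-17266521, + strand: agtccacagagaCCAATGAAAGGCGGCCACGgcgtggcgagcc
Dnajc3, chr14:118937815-118937857, + strand: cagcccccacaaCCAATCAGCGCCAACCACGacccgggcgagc
Ero1b, chr13:12565670-12565712, + strand: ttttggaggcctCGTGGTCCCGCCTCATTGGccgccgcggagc
Syvn1, chr19:6046520-6046562, + strand: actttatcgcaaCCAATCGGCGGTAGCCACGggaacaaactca
Herpud1, chr8:94386365-94386399, + strand: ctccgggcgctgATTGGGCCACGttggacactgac
In Creld2, Derl3, Calr and Ero1b the element reads on the strand opposite to the gene, and the Hsp90b1 promoter holds it once on each strand. For Derl3, Dnajc3 and Herpud1 no transcript of the gene models held the bases just after the RefSeq start. The start used for their windows is therefore uncertain. The log2 fold changes of the 10 genes with element I ran over the list's range, at 5.14 for Derl3, 3.83 for Creld2, 2.35 for Hsp90b1, 2.14 for Pdia6, 1.497 for Calr, 1.40 for Dnajc3, 1.04 for Canx, 0.97 for Hspa5, 0.77 for Ero1b (Ero1lb in the annotation) and 0.35 for Syvn1. Herpud1, an ER membrane protein of the degradation complex whose window holds element II, had 944 and 913 CPM in lymphoma, against 135 and 145 CPM in doubly activated libraries (log2 fold 2.73 ± 0.11, adjusted p = 1.32e-09). Herpud1 also holds the amino acid response core described with the ATF4 genes, apart from element II.

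Translocation and transport out of the ER followed the same direction. All 23 tested members of that list were called higher, 18 over 2-fold, with a median log2 fold change of 1.45. The largest rise was that of Sec24d, a cargo-binding coat subunit of the vesicles that leave the ER, with 128 and 131 CPM in lymphoma, against 1.67 and 1.70 CPM in doubly activated libraries (log2 fold 6.25 ± 0.16, adjusted p = 4.53e-11). Sec61a1, the pore of the translocation channel, had 502 and 502 CPM in lymphoma, against 159 and 165 CPM in doubly activated libraries (log2 fold 1.63 ± 0.08, adjusted p = 6.96e-09). The signal peptidase subunit gene Spcs2 had 269.5 and 253 CPM in lymphoma, against 65.7 and 64.1 CPM in doubly activated libraries (log2 fold 2.01 ± 0.08, adjusted p = 1.61e-09). Spcs3, another subunit, had 254 and 262 CPM in lymphoma, against 74.1 and 67.6 CPM in doubly activated libraries (log2 fold 1.86 ± 0.08, adjusted p = 2.47e-09). Ddost, a subunit of the enzyme that attaches sugars to new proteins, had 249 and 252 CPM in lymphoma, against 74.5 and 74.3 CPM in doubly activated libraries (log2 fold 1.75 ± 0.07, adjusted p = 2.23e-09). Lman1, a receptor that carries glycoproteins to the Golgi, had 238 and 265 CPM in lymphoma, against 46.3 and 37.9 CPM in doubly activated libraries (log2 fold 2.58 ± 0.11, adjusted p = 2.47e-09). The smallest change was that of Sec62, a channel partner, with 103 and 107 CPM in lymphoma, against 82.1 and 88.2 CPM in doubly activated libraries (log2 fold 0.298 ± 0.09, adjusted p = 0.0153), a call lost without lymphoma library 2 (0.0746) and without doubly activated library 1 (0.113). None of the 20 promoters found for this list held either ER stress element.

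**Figure D3:**
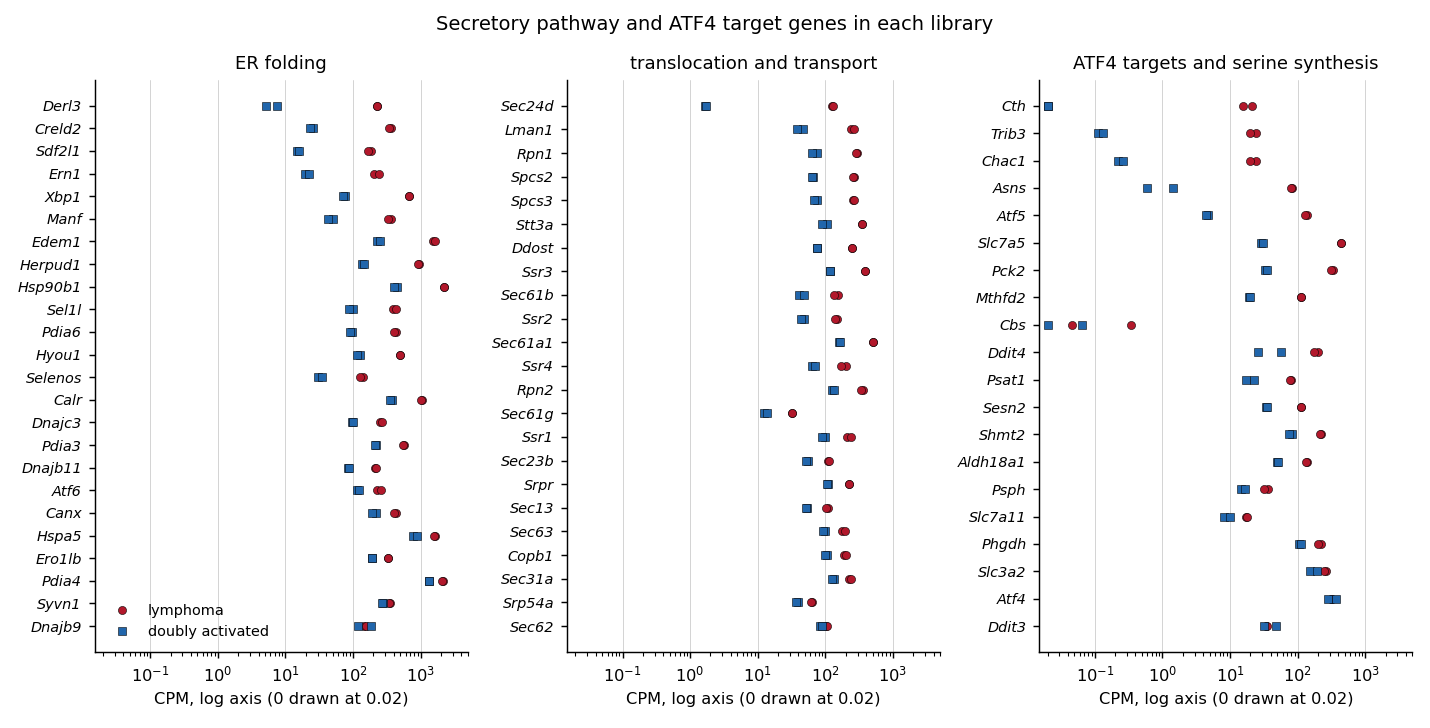
Level of each gene in the 4 libraries (CPM, log scale), in panels for ER folding, ER translocation and transport, and ATF4 targets with serine synthesis, sorted by log2 fold change. Lymphoma libraries lie above doubly activated libraries at 23 of 24, 23 of 23 and 17 of 20 genes that were called higher, and the groups overlap at Dnajb9, Atf4, Ddit3 and Cbs, which were not called.

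A further arm concerned amino acid supply. ATF4 is the transcription factor of amino acid shortage and ER stress, and of 20 genes in the list of its targets and of serine synthesis 17 were called higher and 0 lower, 14 over 2-fold, with a median log2 fold change of 2.06. Atf4 itself had 323 and 312 CPM in lymphoma and 279 and 369 CPM in doubly activated libraries (log2 fold -0.03 ± 0.17, adjusted p = 0.919). Ddit3, which encodes CHOP, had 34.5 and 34.9 CPM in lymphoma and 31.5 and 47.9 CPM in doubly activated libraries (log2 fold -0.19 ± 0.17, adjusted p = 0.361), with overlapping groups for both. Trib3, a pseudokinase that feeds back on ATF4, had 24.6 and 20.1 CPM in lymphoma, against 0.111 and 0.131 CPM in doubly activated libraries (log2 fold 7.46 ± 0.46, adjusted p = 6.41e-08). Chac1, which breaks down glutathione, had 24.2 and 19.5 CPM in lymphoma, against 0.223 and 0.262 CPM in doubly activated libraries (log2 fold 6.46 ± 0.40, adjusted p = 5.85e-08). Asns, the asparagine synthetase, had 81.3 and 80.9 CPM in lymphoma, against 1.45 and 0.589 CPM in doubly activated libraries (log2 fold 6.27 ± 0.38, adjusted p = 6.93e-07). Transcripts of these 3 genes were near 0 in control libraries too, at 0.615 and 0.490 CPM for Trib3, 0.123 and 0.272 CPM for Chac1 and 0.554 and 0.598 CPM for Asns. Cth, the enzyme that makes cysteine, had no count in either doubly activated library and 15.6 and 21.0 CPM in lymphoma libraries, at least 202-fold higher against 3 counts over the doubly activated group (adjusted p = 6.26e-08). Without doubly activated library 1 the list had 1 gene called lower, Ddit3 (adjusted p = 0.0194). Bounds of this kind below use the same 3 counts.

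Slc7a5, an importer of large neutral amino acids, had 436 and 441 CPM in lymphoma, against 28.8 and 31.3 CPM in doubly activated libraries (log2 fold 3.87 ± 0.13, adjusted p = 5.24e-10). Its partner chain Slc3a2 had 267 and 247 CPM in lymphoma, against 152 and 197 CPM in doubly activated libraries (log2 fold 0.56 ± 0.11, adjusted p = 0.00124). Pck2, a mitochondrial enzyme of carbohydrate synthesis, had 332 and 308 CPM in lymphoma, against 33.3 and 35.9 CPM in doubly activated libraries (log2 fold 3.21 ± 0.10, adjusted p = 2.36e-10). Mthfd2, of mitochondrial folate metabolism, had 111 and 114 CPM in lymphoma, against 19.4 and 19.9 CPM in doubly activated libraries (log2 fold 2.52 ± 0.09, adjusted p = 6.86e-10). The serine synthesis enzymes rose by smaller steps, with log2 fold changes of 1.96 for Psat1, 1.13 for Psph and 0.95 for Phgdh. Psat1 had 78.5 and 77.4 CPM in lymphoma and 61.2 and 71.4 CPM in Notch-labelled libraries. For Phgdh these levels were 224 and 199.5 CPM and 204 and 202 CPM, and for Psph 37.1 and 31.7 CPM and 14.3 and 15.9 CPM. The core of the amino acid response element (TTGCATCA, both strands) was in 2 of 18 promoters of this list (11.1%) and in 279 of 27025 (1.03%). Slc7a11, the cystine importer gene, had 17.4 and 18.0 CPM in lymphoma, against 8.02 and 10.01 CPM in doubly activated libraries (log2 fold 0.98 ± 0.21, adjusted p = 0.00185), a call lost with an effective length offset (0.198). Its promoter holds the core on both strands. The windows are shown as before.
Chac1, chr2:119351037-119351068, + strand: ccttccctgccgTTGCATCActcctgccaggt
Slc7a11, chr3:50443641-50443672, - strand: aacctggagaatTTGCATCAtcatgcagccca
Slc7a11, chr3:50443660-50443691, - strand: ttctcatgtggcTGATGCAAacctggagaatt

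Most regulators and markers of plasma cells rose too. Of 13 genes tested, 11 were called higher and 0 lower, 9 over 2-fold, with a median log2 fold change of 1.46. Prdm1 had 141 and 162 CPM in lymphoma, against 17.8 and 20.1 CPM in doubly activated libraries (log2 fold 3 ± 0.27, adjusted p = 3.35e-05). Irf4, the transcription factor needed for plasma cell fate, had 1068 and 1199 CPM in lymphoma, against 426 and 565 CPM in doubly activated libraries (log2 fold 1.19 ± 0.14, adjusted p = 2.58e-05). Mzb1, an ER cochaperone of antibody assembly, had 1066 and 968 CPM in lymphoma, against 274 and 284 CPM in doubly activated libraries (log2 fold 1.87 ± 0.09, adjusted p = 1.1e-08). Ell2, the elongation factor that favours the secreted form of the heavy chain message, had 162 and 186 CPM in lymphoma, against 64.1 and 62.2 CPM in doubly activated libraries (log2 fold 1.46 ± 0.09, adjusted p = 5.1e-08). Slamf7, a surface receptor of plasma cells, had 159 and 182 CPM in lymphoma, against 37.6 and 38.2 CPM in doubly activated libraries (log2 fold 2.17 ± 0.10, adjusted p = 3.81e-09). Txndc5, an ER disulfide isomerase, had 261 and 254 CPM in lymphoma, against 95.9 and 90.9 CPM in doubly activated libraries (log2 fold 1.46 ± 0.14, adjusted p = 6.95e-06). The classical marker Sdc1 (CD138) stayed at a low level, with 14.7 and 14.02 CPM in lymphoma, against 2.34 and 2.09 CPM in doubly activated libraries (log2 fold 2.69 ± 0.63, adjusted p = 0.00748). Its call was lost without doubly activated library 1 (0.0583) and without doubly activated library 2 (0.0635). The other 2 members were not called: Jchain, the joining chain of polymeric antibody, had 46.9 and 44.9 CPM in lymphoma and 66.2 and 65.5 CPM in doubly activated libraries (log2 fold -0.52 ± 0.62, adjusted p = 0.534), and was called lower in the 4 compared libraries alone (log2 fold -0.54, adjusted p = 0.000441), where the list had 1 member called lower. The kinase Pim2 had 73.6 and 76.8 CPM in lymphoma and 54.2 and 26.4 CPM in doubly activated libraries (log2 fold 0.89 ± 0.97, adjusted p = 0.496).

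Immunoglobulin constant-region genes differed by class. Ighm had 24363 and 22795 CPM in lymphoma, against 5352 and 5504 CPM in doubly activated libraries (log2 fold 2.12 ± 0.09, adjusted p = 3.16e-09). Igkc had 6016 and 5324 CPM in lymphoma, against 699 and 665 CPM in doubly activated libraries (log2 fold 3.06 ± 0.10, adjusted p = 5.64e-10). Ighm is spliced into a secreted form, which here has 4 exons, and a membrane form with 6 exons. The secreted transcript had 14997 and 15628 TPM (a level corrected for transcript length) in lymphoma and 1234 and 1249 TPM in doubly activated libraries, a ratio of means of 12.3. The membrane transcript had 4348 and 4131 TPM in lymphoma and 3482 and 3394 TPM in doubly activated libraries, a ratio of 1.23. The secreted form made up 77.5% and 79.1% of Ighm TPM in lymphoma libraries and 26.2% and 26.9% in doubly activated libraries. Ighd, the IgD chain of naive cells, had 43.1 and 43.8 CPM in lymphoma, against 486 and 232 CPM in doubly activated libraries (log2 fold -3.05 ± 0.36, adjusted p = 0.000631). Ighg3 had 605 and 598 CPM in lymphoma, against 66.1 and 77.9 CPM in doubly activated libraries (log2 fold 3.06 ± 0.28, adjusted p = 0.000124). Ighg2b did not separate the groups, with 70.9 and 69.7 CPM in lymphoma and 82.4 and 34.3 CPM in doubly activated libraries (log2 fold 0.26 ± 0.76, adjusted p = 0.809).

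Genes of mature B cell identity moved mostly the other way. Of 27 such genes 19 were called lower and 6 higher, against 25.2% and 26.1% of all genes, with a median log2 fold change of -0.58. Cr2 (CD21), the complement receptor that marks marginal zone cells and their precursors, had 28.5 and 23.3 CPM in lymphoma, against 2940 and 2869 CPM in doubly activated libraries (log2 fold -6.81 ± 0.23, adjusted p = 1.51e-08). Fcer2a (CD23), the IgE receptor of follicular and precursor cells, had 4.72 and 4.55 CPM in lymphoma, against 481 and 391 CPM in doubly activated libraries (log2 fold -6.55 ± 0.20, adjusted p = 2.88e-09). Control libraries held 2899 and 1874 CPM of Cr2 and 532 and 669 CPM of Fcer2a, and Notch-labelled libraries 111 and 109.9 CPM of Cr2 and 10.9 and 9.395 CPM of Fcer2a. Low levels of both markers were thus shared by lymphoma and Notch-labelled libraries. Bach2, the repressor that holds back Prdm1, had 5.83 and 8.06 CPM in lymphoma, against 87.9 and 62.2 CPM in doubly activated libraries (log2 fold -3.44 ± 0.26, adjusted p = 1.49e-05). Pax5, the master factor of B cell identity, had 82.0 and 129 CPM in lymphoma, against 207 and 229 CPM in doubly activated libraries (log2 fold -1.05 ± 0.18, adjusted p = 0.000919). Ptprc (CD45, B220 in B cells) had 396 and 466 CPM in lymphoma, against 1469 and 1355 CPM in doubly activated libraries (log2 fold -1.71 ± 0.10, adjusted p = 3.8e-08). The adaptor Bank1 had 169 and 177 CPM in lymphoma, against 561 and 574 CPM in doubly activated libraries (log2 fold -1.72 ± 0.09, adjusted p = 1.68e-08). Ms4a1 (CD20) fell little, with 1226 and 1226 CPM in lymphoma, against 1555 and 1485 CPM in doubly activated libraries (log2 fold -0.31 ± 0.10, adjusted p = 0.0202), a call lost without lymphoma library 1 (0.0656), without lymphoma library 2 (0.0656) and without doubly activated library 1 (0.103). Vpreb3, made early in B cell development, was among the members that rose, with 252 and 214 CPM in lymphoma, against 12.3 and 10.01 CPM in doubly activated libraries (log2 fold 4.38 ± 0.14, adjusted p = 2.81e-10). Cd24a, a surface protein of immature B cells, had 1128 and 1068 CPM in lymphoma, against 279 and 302 CPM in doubly activated libraries (log2 fold 1.92 ± 0.14, adjusted p = 6.63e-07).

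Follicular B cell genes fell, with 12 of 14 called lower and 2 higher, 10 lower by over 2-fold, and a median log2 fold change of -1.84. Satb1, a chromatin organiser, had 3.61 and 4.98 CPM in lymphoma, against 88.6 and 82.1 CPM in doubly activated libraries (log2 fold -4.32 ± 0.21, adjusted p = 9.1e-08). Klf2, a transcription factor of resting B cells, had 62.0 and 51.5 CPM in lymphoma, against 222 and 419 CPM in doubly activated libraries (log2 fold -2.50 ± 0.39, adjusted p = 0.00263). Cd55, which protects cells from complement, had 54.6 and 62.3 CPM in lymphoma, against 254 and 275 CPM in doubly activated libraries (log2 fold -2.18 ± 0.11, adjusted p = 1.11e-08). Members called higher numbered 1 with an effective length offset, without lymphoma library 1, without doubly activated library 1 and without doubly activated library 2. Marginal zone genes split, with 6 of 16 called higher and 7 lower, against 26.1% and 25.2% of all genes. On the higher side, the scavenger receptor Cd36 had 946 and 987 CPM in lymphoma, against 165 and 178 CPM in doubly activated libraries (log2 fold 2.50 ± 0.21, adjusted p = 2.88e-05). The lipid receptor Gpr55 had 36.5 and 39.9 CPM in lymphoma, against 3.17 and 3.01 CPM in doubly activated libraries (log2 fold 3.62 ± 0.15, adjusted p = 2.31e-09). On the lower side, the sphingosine phosphate receptor gene S1pr1, which holds cells in the marginal zone, had 127 and 124 CPM in lymphoma, against 335 and 364 CPM in doubly activated libraries (log2 fold -1.48 ± 0.09, adjusted p = 5.81e-08). S1pr3, a second such receptor, had 67.6 and 58.1 CPM in lymphoma, against 238 and 257 CPM in doubly activated libraries (log2 fold -1.98 ± 0.14, adjusted p = 3.3e-07).

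B cell receptor signalling genes fell by small steps: 18 of 22 were called lower and 3 higher, yet 2 passed 2-fold downward, and the median was -0.42. Blnk, the adaptor behind the receptor, had 228 and 227 CPM in lymphoma, against 491 and 546 CPM in doubly activated libraries (log2 fold -1.19 ± 0.08, adjusted p = 1.5e-07). Syk, the kinase that starts the signal, had 794 and 798 CPM in lymphoma, against 1563 and 1590 CPM in doubly activated libraries (log2 fold -0.99 ± 0.09, adjusted p = 1.54e-06). Rasgrp3, which activates Ras, went the other way with 624 and 688 CPM in lymphoma, against 265 and 219 CPM in doubly activated libraries (log2 fold 1.44 ± 0.11, adjusted p = 6.25e-07). Of 16 germinal centre and antibody diversification genes, 6 were called lower and 4 higher, against 25.2% and 26.1% of all genes. Their median was -0.89 as fitted and -0.42 with genes at 0 in a group set to their bound. Spib, an ETS factor, had a log2 fold change of -0.95. Bcl6, the germinal centre repressor, had 2.13 and 2.25 CPM in lymphoma, against 42.4 and 35.7 CPM in doubly activated libraries (log2 fold -4.16 ± 0.27, adjusted p = 9.87e-07). The death receptor Fas had 0.555 and 0.831 CPM in lymphoma, against 14.4 and 14.7 CPM in doubly activated libraries (log2 fold -4.38 ± 0.27, adjusted p = 5.15e-08). Ezh2, a histone methyltransferase of dividing B cells, had 130 and 125 CPM in lymphoma, against 43.5 and 37.5 CPM in doubly activated libraries (log2 fold 1.65 ± 0.15, adjusted p = 6.56e-06). In the early B cell and recombination list, 2 of 11 tested members were called higher and 2 lower, at a median of 0.11. Both counts were under the shares of all genes. Kit, the stem cell factor receptor, had 82.2 and 92.5 CPM in lymphoma, against 7.68 and 8.51 CPM in doubly activated libraries (log2 fold 3.43 ± 0.27, adjusted p = 4.52e-06), with 0.308 and 1.52 CPM in control. Lef1 had a log2 fold change of 1.09 and Cd93 of -2.21. For lower members the count was 1 with no filter on low counts, without lymphoma library 2 and without doubly activated library 1. The recombinase gene Rag1 was at 0 and 0 CPM in lymphoma and 0.0557 and 0 CPM in doubly activated libraries, and Rag2 at 0.509 and 0.880 CPM in lymphoma and 0.278 and 0.196 CPM in doubly activated libraries.

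Lymphoma cells carried far more transcripts of cell division. All 22 mitosis and spindle genes were called and over 2-fold higher, at a median log2 fold change of 2.35, and 21 of 25 replication genes were called higher and 2 lower. Mki67, a proliferation marker, had 512 and 714 CPM in lymphoma, against 72.8 and 61.6 CPM in doubly activated libraries (log2 fold 3.19 ± 0.35, adjusted p = 0.000483). Top2a, the topoisomerase of dividing cells, had 281 and 308 CPM in lymphoma, against 69.8 and 56.1 CPM in doubly activated libraries (log2 fold 2.22 ± 0.24, adjusted p = 0.000151). Ccnb2, a mitotic cyclin, had 45.0 and 41.3 CPM in lymphoma, against 4.68 and 5.36 CPM in doubly activated libraries (log2 fold 3.11 ± 0.17, adjusted p = 2.31e-08). The kinase gene Plk1 had 35.8 and 34.5 CPM in lymphoma, against 7.52 and 7.20 CPM in doubly activated libraries (log2 fold 2.25 ± 0.18, adjusted p = 5.61e-07). In replication, the ligase Lig1 had 82.2 and 87.8 CPM in lymphoma, against 23.3 and 19.2 CPM in doubly activated libraries (log2 fold 1.99 ± 0.13, adjusted p = 1.81e-07). Rrm2, which makes deoxynucleotides, had 99.2 and 91.7 CPM in lymphoma, against 13.5 and 10.9 CPM in doubly activated libraries (log2 fold 2.96 ± 0.296, adjusted p = 0.00014). Pcna, the sliding clamp, was not called, with 158 and 158 CPM in lymphoma and 128 and 149 CPM in doubly activated libraries (log2 fold 0.19 ± 0.13, adjusted p = 0.245). 2 genes were called lower. The licensing factor Cdt1 had 39.2 and 36.8 CPM in lymphoma, against 68.0 and 85.8 CPM in doubly activated libraries (log2 fold -1.02 ± 0.12, adjusted p = 2.06e-05). The polymerase subunit gene Pold1 had 101.3 and 102 CPM in lymphoma, against 147 and 161 CPM in doubly activated libraries (log2 fold -0.60 ± 0.12, adjusted p = 0.00155). Further log2 fold changes were 2.02 for Cdc45, 1.40 for Mcm6 and 1.24 for Fen1 in replication, and 2.32 for Kif20a and 1.85 for Foxm1 in mitosis. Mki67 was also high in Notch-labelled libraries, at 835 and 819 CPM, while control libraries held 193 and 115 CPM.

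G1 cyclins and E2F genes rose in 10 of 15 cases and fell in 1, with a median of 0.58. Ccnd2, the cyclin D of B cells, had 553 and 623 CPM in lymphoma, against 82.4 and 54.4 CPM in doubly activated libraries (log2 fold 3.10 ± 0.18, adjusted p = 4.85e-07). Ccnd3, the cyclin D of germinal centre cells, had 46.5 and 41.8 CPM in lymphoma, against 86.4 and 71.9 CPM in doubly activated libraries (log2 fold -0.84 ± 0.10, adjusted p = 1.55e-05). Ccne1 and Ccne2, the cyclins of entry into replication, had log2 fold changes of 1.66 and 1.83. The lower count was 3 with an effective length offset, and 2 without lymphoma library 2. Of 16 inhibitors of the cycle and p53 genes 9 were called higher and 3 lower, against 26.1% and 25.2% of all genes. Cdkn2a (ENSMUSG00000044303, chromosome 4, 89274471 to 89294653 in GRCm38), which encodes the tumour suppressors p16 and p19Arf, had 57.8 and 54.2 CPM in lymphoma, against 0.668 and 0.785 CPM in doubly activated libraries (log2 fold 6.26 ± 0.28, adjusted p = 4.25e-09). Its transcript Cdkn2a-201 had 50.6 and 51.7 TPM in lymphoma and 0.276 and 1.44 TPM in doubly activated libraries, and Cdkn2a-202 had 39.6 and 40.4 TPM in lymphoma and 0.946 and 0 TPM in doubly activated libraries, so both transcripts were high in both lymphoma libraries. Cdkn1a (p21), a p53 target, had 14.9 and 12.2 CPM in lymphoma, against 0.668 and 0.393 CPM in doubly activated libraries (log2 fold 4.64 ± 0.33, adjusted p = 2.13e-07). Zmat3, another p53 target, had 175 and 194 CPM in lymphoma, against 25.6 and 28.0 CPM in doubly activated libraries (log2 fold 2.78 ± 0.10, adjusted p = 7.7e-10). Ccng1, also a target, had 329.9 and 339 CPM in lymphoma, against 83.3 and 76.7 CPM in doubly activated libraries (log2 fold 2.06 ± 0.08, adjusted p = 8.6e-10). Mdm2, the p53 antagonist, had 151 and 151 CPM in lymphoma, against 91.5 and 96.6 CPM in doubly activated libraries (log2 fold 0.68 ± 0.07, adjusted p = 6.05e-06). Trp53, the p53 gene, was lower, with 154 and 139 CPM in lymphoma, against 202 and 197 CPM in doubly activated libraries (log2 fold -0.443 ± 0.08, adjusted p = 0.000564). Sesn1, also a p53 target, was lower, with 82.4 and 86.6 CPM in lymphoma, against 132 and 119.5 CPM in doubly activated libraries (log2 fold -0.58 ± 0.12, adjusted p = 0.00208), so p53 targets stood on both sides.

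Of 22 DNA repair genes 12 were called higher and 3 lower, at a median of 0.442. The checkpoint kinase gene Chek1 had 13.9 and 14.7 CPM in lymphoma, against 2.28 and 3.14 CPM in doubly activated libraries (log2 fold 2.41 ± 0.21, adjusted p = 1.44e-06). Brca1 and Xrcc6, of recombination and end joining, had log2 fold changes of 1.77 and 1.15. Members called lower numbered 1 with an effective length offset, without lymphoma library 1 and without doubly activated library 1.

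Myc, a transcription factor of cell growth activated in many lymphomas, had 232 and 204 CPM in lymphoma, against 496 and 747 CPM in doubly activated libraries (log2 fold -1.51 ± 0.37, adjusted p = 0.016), a lower level in lymphoma whose call was lost without lymphoma library 1 (0.0647), without lymphoma library 2 (0.0847) and without doubly activated library 2 (0.0728). Control libraries held 246 and 125 CPM of it. Of 21 genes of the Myc network, 12 were called higher and 5 lower, a median of 0.39 (0.34 with genes at 0 at their bound). For lower members the count was 3 without lymphoma library 2 and without doubly activated library 2. Srm, a polyamine enzyme, had 75.95 and 65.7 CPM in lymphoma, against 33.1 and 30.03 CPM in doubly activated libraries (log2 fold 1.16 ± 0.11, adjusted p = 2.15e-06). Cad and Nme1, of nucleotide synthesis, had log2 fold changes of 0.90 and 0.67, and Mnt, a Myc antagonist, of -0.95. Ribosome biogenesis genes had 10 of 20 called higher and 1 lower, 0 of them over 2-fold. The higher count was 6 without lymphoma library 2 and without doubly activated library 2. Members called lower numbered 0 with no filter on low counts, in the 4 compared libraries alone, with an effective length offset, without lymphoma library 2, without doubly activated library 1 and without doubly activated library 2. Log2 fold changes were 0.74 for Nop16, 0.55 for Npm1 and 0.45 for Nop58. Ncl (nucleolin) had 1147 and 1133 CPM in lymphoma, against 833 and 771 CPM in doubly activated libraries (log2 fold 0.51 ± 0.08, adjusted p = 0.000217). The 32 cytosolic ribosomal proteins went both ways, 11 higher and 9 lower, against 26.1% and 25.2% of all genes, with a median of 0.008. Of these 32 genes, 30 were higher in doubly activated library 2 than in library 1 and 1 was higher in lymphoma library 2 than in library 1. For higher members the count was 7 in the 4 compared libraries alone, and 5 without lymphoma library 1 and without doubly activated library 1. The lower count was 5 without lymphoma library 2 and without doubly activated library 2. Rpl11 and Rpl14 had log2 fold changes of 1.10 and 0.90, and Rps15 of -0.62.

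Cholesterol synthesis and uptake rose in 16 of 19 tested genes and fell in 0, 8 over 2-fold higher, with a median of 0.80. Idi1, an early enzyme of the pathway, had 43.8 and 44.1 CPM in lymphoma, against 14.1 and 14.5 CPM in doubly activated libraries (log2 fold 1.62 ± 0.11, adjusted p = 1.83e-07). Cyp51 and Fdps had log2 fold changes of 1.42 and 1.51. Proteasome subunits rose in 20 of 22, 2 over 2-fold, at a median of 0.57, with 158 and 149 CPM in lymphoma, against 77.7 and 61.6 CPM in doubly activated libraries for Psma4 (log2 fold 1.14 ± 0.11, adjusted p = 2.04e-06). Psma5, Psmb7 and Psmb4 had log2 fold changes of 1.12, 0.88 and 0.74. Nuclear genes of the respiratory chain rose in 15 of 19, 0 over 2-fold, at a median of 0.39, with 81.8 and 76.3 CPM in lymphoma, against 45.3 and 47.4 CPM in doubly activated libraries for Cox5a (log2 fold 0.77 ± 0.09, adjusted p = 1.56e-05). Uqcrfs1 and Atp5a1 had log2 fold changes of 0.74 and 0.64, and Cycs (cytochrome c) of 0.78, a call lost with an effective length offset, where the value was -0.18 (adjusted p = 0.39). Of 18 genes of glucose uptake and glycolysis 10 were called higher and 3 lower. Pgk1 and Pkm had log2 fold changes of 1.07 and 0.91. Gapdh had 1583 and 1444 CPM in lymphoma, against 721 and 744 CPM in doubly activated libraries (log2 fold 1.05 ± 0.08, adjusted p = 5.88e-07). The glucose importer Slc2a1 had 29.8 and 30.8 CPM in lymphoma, against 60.7 and 70.8 CPM in doubly activated libraries (log2 fold -1.12 ± 0.09, adjusted p = 6.52e-07).

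NF-kB genes were mostly lower in lymphoma than in doubly activated cells, and Notch targets divided. Of 31 genes of the NF-kB pathway and its targets 20 were called lower and 4 higher, against 25.2% and 26.1% of all genes, with a median log2 fold change of -0.55. Within the doubly activated group, 21 of 30 with counts were higher in library 2 than in library 1. Their median log2 ratio was 0.08, against 0.00 over 14572 genes. The part of this spread in the NF-kB difference was not tested. Nfkb2, the precursor that NIK signalling cleaves to p52, had 302 and 291 CPM in lymphoma, against 654 and 683 CPM in doubly activated libraries (log2 fold -1.17 ± 0.09, adjusted p = 5.56e-07). Traf1, an adaptor induced by NF-kB, had 101.3 and 93.3 CPM in lymphoma, against 281 and 307 CPM in doubly activated libraries (log2 fold -1.60 ± 0.08, adjusted p = 1.24e-08), with 74.7 and 68.4 CPM in control. Rel, a subunit of B cells, had 43.9 and 54.9 CPM in lymphoma, against 155 and 216 CPM in doubly activated libraries (log2 fold -1.91 ± 0.16, adjusted p = 3.63e-06). Tnfaip3 (A20), a brake on the pathway, had 187 and 193 CPM in lymphoma, against 391 and 613 CPM in doubly activated libraries (log2 fold -1.40 ± 0.18, adjusted p = 0.000241). Control libraries held 76.5 and 64.2 CPM of Tnfaip3, which was thus higher in lymphoma than in control cells (log2 fold 1.44, adjusted p = 0.000219). Rel was lower in lymphoma than in control cells (log2 fold -1.48, adjusted p = 2.08e-05). Cd40, the receptor for T cell help, had a log2 fold change of -1.20. The 4 members called higher were Ccl22, Ccl17, Bcl2l1 and Cflar, the last 2 being survival genes. Bcl2l1 (Bcl-xL) had 5.32 and 3.32 CPM in lymphoma, against 1.28 and 2.03 CPM in doubly activated libraries (log2 fold 1.39 ± 0.37, adjusted p = 0.00676), a call lost with an effective length offset (0.186), without lymphoma library 1 (0.0756) and without doubly activated library 1 (0.0731), and Cflar a log2 fold change of 0.34, lost with an effective length offset (0.152), without lymphoma library 2 (0.0933) and without doubly activated library 2 (0.0655). Of 17 Notch targets 7 were called lower and 5 higher, against 25.2% and 26.1% of all genes, a median of -0.53. Hes1, a direct target, had 22.3 and 20.6 CPM in lymphoma, against 62.9 and 79.6 CPM in doubly activated libraries (log2 fold -1.73 ± 0.19, adjusted p = 4.14e-05). Notch1 had 25.9 and 29.0 CPM in lymphoma, against 59.0 and 62.5 CPM in doubly activated libraries (log2 fold -1.15 ± 0.11, adjusted p = 2.02e-06), a call lost with an effective length offset (0.647). Notch3, another receptor, had 6.94 and 5.62 CPM in lymphoma, against 0 and 0.0654 CPM in doubly activated libraries (209-fold higher, exact 95% interval 37.3 to 8300). Exact intervals, here and below, pool the libraries of a group and cover counting error only, without the spread between libraries. Tcf7, a target known from T cells, had 46.5 and 46.0 CPM in lymphoma, against 15.3 and 12.2 CPM in doubly activated libraries (log2 fold 1.75 ± 0.17, adjusted p = 3.7e-06). Dtx1, the Notch target of marginal zone cells, had 971 and 868 CPM in lymphoma, against 1347 and 1610 CPM in doubly activated libraries (log2 fold -0.69 ± 0.12, adjusted p = 0.000538).

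**Figure D4:**
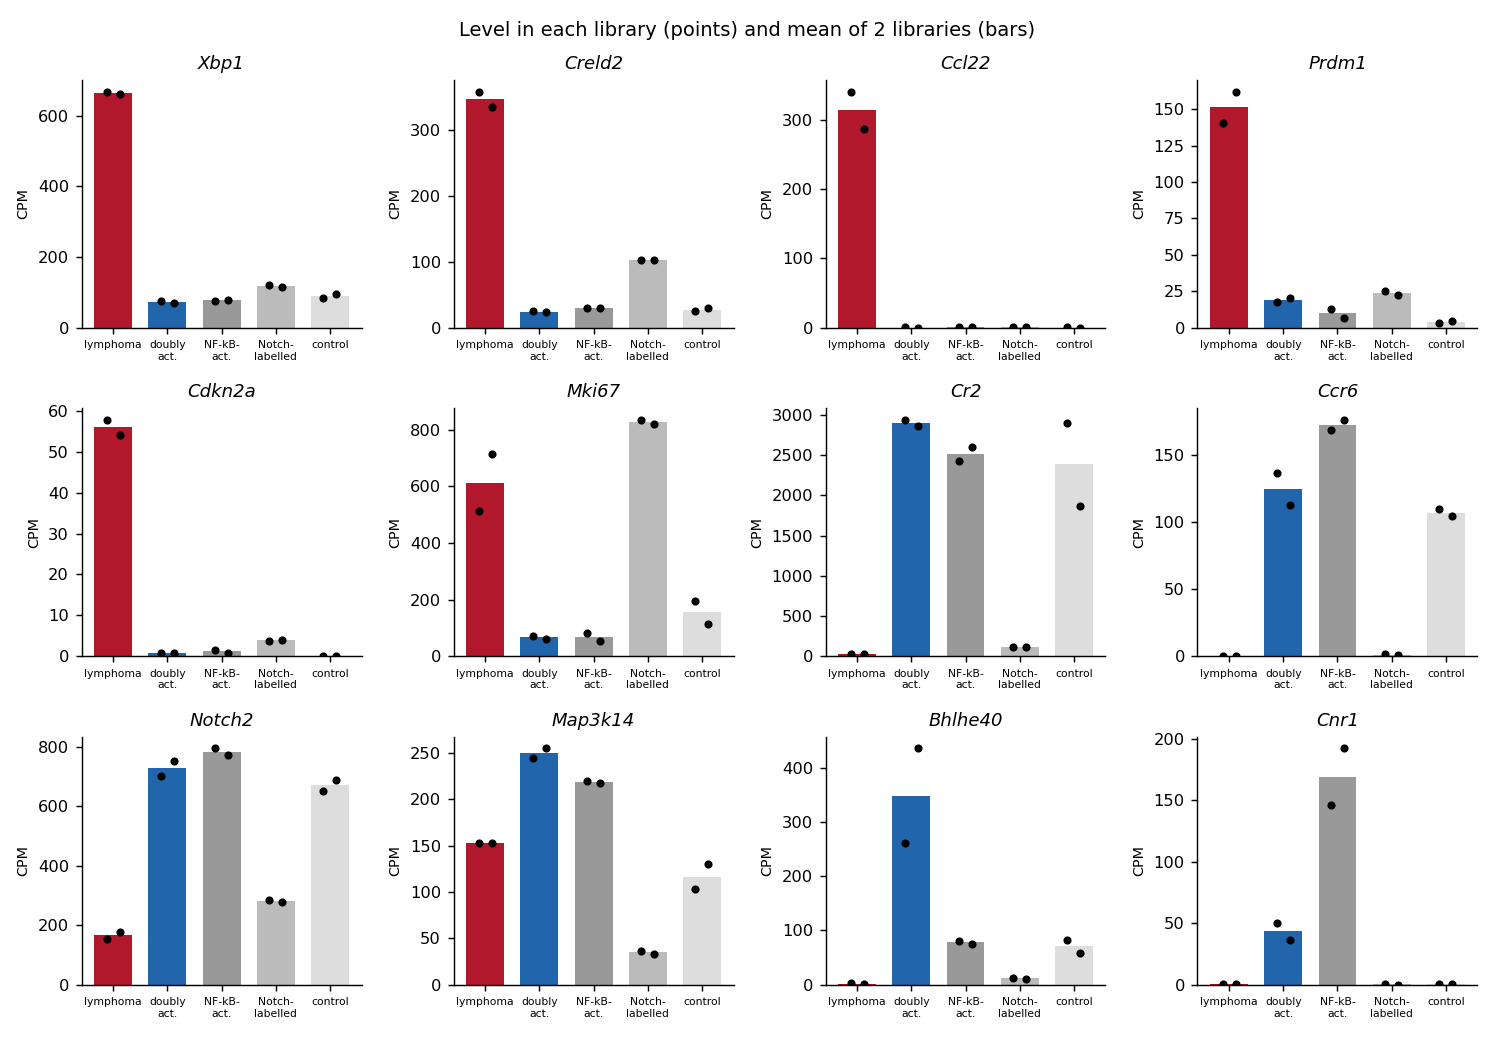
Levels of 12 genes (CPM, linear axes from 0) in the 5 groups, with a point for each library and a bar at the mean of the 2 libraries of a group. Xbp1, Creld2, Ccl22, Prdm1 and Cdkn2a are highest in both lymphoma libraries, Cr2, Ccr6, Notch2 and Bhlhe40 are lowest there, and Mki67 is high in lymphoma and Notch-labelled libraries.

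Positioning receptors mostly fell, and chemokine ligands were called about as often as all genes. Ccl22 (ENSMUSG00000031779, chromosome 8, 94745590 to 94751699 in GRCm38), the chemokine of dendritic cells and activated B cells that attracts regulatory T cells, had 340.3 and 286 CPM in lymphoma, against 0.278 and 0.0654 CPM in doubly activated libraries (log2 fold 10.71 ± 0.22, adjusted p = 1.59e-11). It was at 1.36 and 1.47 CPM in NF-kB-activated, 0.2999 and 0.396 CPM in Notch-labelled and 0.246 and 0.109 CPM in control libraries. The neighbouring ligand gene Ccl17 had 2.08 and 1.96 CPM in lymphoma and no count in doubly activated libraries, at least 22.4-fold higher (adjusted p = 0.00056). Cx3cl1, the membrane-bound chemokine gene that lies between them (94772009 to 94782427), had 7.91 and 6.79 CPM in lymphoma and no count in doubly activated libraries (at least 81.6-fold higher, adjusted p = 2.97e-06). The flanking genes were not called: Pllp, before Ccl22, had 0.139 and 0.391 CPM in lymphoma and 0.835 and 0.654 CPM in doubly activated libraries (log2 fold -1.48 ± 0.78, adjusted p = 0.131). Ciapin1, after Ccl17, had 40.5 and 36.9 CPM in lymphoma and 43.2 and 44.0 CPM in doubly activated libraries (log2 fold -0.17 ± 0.09, adjusted p = 0.143). The 3 neighbouring chemokine genes thus rose together while the next gene on either side did not pass the test. Of 11 chemokine ligands tested 3 were called higher and 2 lower, against 26.1% and 25.2% of all genes, at a median of 0.66. Members called lower numbered 1 with no filter on low counts, with DESeq2, with a replicate block, without lymphoma library 1, without lymphoma library 2 and without doubly activated library 2. Ccl3 had a log2 fold change of -3.08. Cxcl10 had 8.604 and 10.02 CPM in lymphoma, against 2.23 and 5.04 CPM in doubly activated libraries (log2 fold 1.37 ± 0.34, adjusted p = 0.00529), a call lost with an effective length offset (0.0502) and without doubly activated library 1 (0.0515). Of 15 receptors for chemokines and positioning signals 9 were called lower and 3 higher, with a median of -1.26. For higher members the count was 1 without lymphoma library 1 and without lymphoma library 2, and 0 without doubly activated library 1. Ccr6 (ENSMUSG00000040899, chromosome 17, 8236043 to 8257141 in GRCm38), a receptor of naive and marginal zone B cells, had 0.139 and 0 CPM in lymphoma, against 137 and 112 CPM in doubly activated libraries (1761-fold lower, exact 95% interval 602 to 8544, adjusted p = 6.92e-10). Gpr174, a lysophospholipid receptor, had 1.53 and 1.96 CPM in lymphoma, against 57.2 and 51.3 CPM in doubly activated libraries (log2 fold -4.96 ± 0.18, adjusted p = 1.17e-09). Gpr183 (EBI2), the oxysterol receptor, had 57.6 and 62.3 CPM in lymphoma, against 151 and 178 CPM in doubly activated libraries (log2 fold -1.46 ± 0.13, adjusted p = 2.01e-06). Ccr7, the receptor for lymph node zones, had 79.6 and 69.5 CPM in lymphoma, against 162 and 259.6 CPM in doubly activated libraries (log2 fold -1.497 ± 0.37, adjusted p = 0.018). Cxcr4, the receptor for bone marrow niches, had 156 and 157 CPM in lymphoma, against 61.5 and 72.3 CPM in doubly activated libraries (log2 fold 1.23 ± 0.3, adjusted p = 0.0141). The Ccr7 call was lost without lymphoma library 1 (0.0676), without lymphoma library 2 (0.09) and without doubly activated library 2 (0.0775), and the Cxcr4 call without lymphoma library 1 (0.0537), without lymphoma library 2 (0.0531), without doubly activated library 1 (0.0905) and without doubly activated library 2 (0.0545).

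Integrins and adhesion molecules had 10 of 20 members called higher and 6 lower, against 26.1% and 25.2% of all genes. Cd44, the hyaluronan receptor, had 170.2 and 185 CPM in lymphoma, against 44.3 and 48.2 CPM in doubly activated libraries (log2 fold 1.94 ± 0.09, adjusted p = 3.81e-09). Itgax (CD11c) had 88.2 and 93.0 CPM in lymphoma, against 11.1 and 5.95 CPM in doubly activated libraries (log2 fold 3.39 ± 0.50, adjusted p = 0.00164). Alcam had 39.6 and 40.7 CPM in lymphoma, against 3.95 and 2.81 CPM in doubly activated libraries (log2 fold 3.56 ± 0.32, adjusted p = 8.1e-06). Itgb1 had a log2 fold change of 1.14. Itgb3 had 19.6 and 21.8 CPM in lymphoma, against 97.3 and 78.8 CPM in doubly activated libraries (log2 fold -2.09 ± 0.16, adjusted p = 1.53e-06). Of 22 costimulation and checkpoint genes 11 were called higher and 8 lower, against 26.1% and 25.2% of all genes, at a median of 0.65. Icosl, the ligand of a T cell costimulator, had 51.4 and 50.9 CPM in lymphoma, against 487 and 458 CPM in doubly activated libraries (log2 fold -3.21 ± 0.10, adjusted p = 2.08e-10). The inhibitory receptor gene Vsir had 45.0 and 45.9 CPM in lymphoma, against 6.01 and 6.48 CPM in doubly activated libraries (log2 fold 2.86 ± 0.18, adjusted p = 7.01e-08). The cytokine gene Il10 had 30.02 and 29.4 CPM in lymphoma, against 4.18 and 6.28 CPM in doubly activated libraries (log2 fold 2.51 ± 0.26, adjusted p = 5.33e-06). Havcr1 (TIM-1), a marker of regulatory B cells, had 26.4 and 23.2 CPM in lymphoma, against 1.06 and 0.196 CPM in doubly activated libraries (log2 fold 5.24 ± 0.50, adjusted p = 5.28e-06). Ebi3, a chain of regulatory cytokines, had a log2 fold change of 1.81. The list thus held genes of T cell activation and of T cell inhibition on both sides, as Tnfsf9, a costimulatory ligand, had 18.0 and 14.1 CPM in lymphoma, against 1.28 and 0.523 CPM in doubly activated libraries (log2 fold 4.11 ± 0.37, adjusted p = 2.13e-06). Pdcd1lg2, an inhibitory ligand, had 1.48 and 0.929 CPM in lymphoma, against 9.08 and 9.62 CPM in doubly activated libraries (log2 fold -2.94 ± 0.27, adjusted p = 2.03e-06).

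Antigen presentation divided by class. MHC class I and peptide loading genes rose in 11 of 13 cases and fell in 0, 3 over 2-fold, at a median of 0.48. Nlrc5, their transactivator, had 1042 and 1146 CPM in lymphoma, against 418 and 380.1 CPM in doubly activated libraries (log2 fold 1.46 ± 0.08, adjusted p = 2.78e-08). B2m, the common light chain, had 2547 and 2328 CPM in lymphoma, against 1496 and 1440 CPM in doubly activated libraries (log2 fold 0.73 ± 0.08, adjusted p = 1.26e-05). The chaperones Calr and Pdia3 of this list are also ER folding members. Class II genes were called lower in 9 of 14 cases and higher in 2, at a median of -0.29. Ciita, the class II transactivator, had 362 and 376 CPM in lymphoma, against 709 and 678 CPM in doubly activated libraries (log2 fold -0.91 ± 0.08, adjusted p = 1.16e-06). H2-Ob, which restrains peptide loading, had 419.5 and 389 CPM in lymphoma, against 962 and 861 CPM in doubly activated libraries (log2 fold -1.17 ± 0.09, adjusted p = 3.67e-07). H2-DMb2 and H2-Oa had log2 fold changes of -1.04 and -0.95. H2-Aa, a main class II chain, was not called, with 2586 and 2334 CPM in lymphoma and 2453 and 2400 CPM in doubly activated libraries (log2 fold 0.02 ± 0.09, adjusted p = 0.883), nor was Cd74, the invariant chain, with 10231 and 9199 CPM in lymphoma and 8798 and 9240 CPM in doubly activated libraries (log2 fold 0.11 ± 0.09, adjusted p = 0.36). Interferon response genes were lower in 16 of 25 cases and higher in 3, 8 lower by over 2-fold, with a median of -0.81. Stat2 had 94.7 and 91.1 CPM in lymphoma, against 219.5 and 226 CPM in doubly activated libraries (log2 fold -1.26 ± 0.09, adjusted p = 1.39e-07). Irf7, the amplifier of the response, had 2.54 and 2.35 CPM in lymphoma, against 30.1 and 29.2 CPM in doubly activated libraries (log2 fold -3.60 ± 0.33, adjusted p = 1.82e-05). Oas1a and Rtp4 had log2 fold changes of -1.83 and -3.61. Gbp2 rose, with 138 and 135 CPM in lymphoma, against 60.3 and 61.2 CPM in doubly activated libraries (log2 fold 1.17 ± 0.11, adjusted p = 1.62e-06).

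Immediate early and stress genes, which respond fast to antigen, stress and also to tissue dissociation, were mostly lower in lymphoma than in doubly activated libraries. Of 21 such genes 17 were called lower, 16 over 2-fold, and 1 higher, at a median log2 fold change of -1.99. Zfp36, which destabilises cytokine messages, had 187 and 179 CPM in lymphoma, against 599.6 and 838 CPM in doubly activated libraries (log2 fold -1.98 ± 0.15, adjusted p = 1.73e-06). Nr4a1, a nuclear receptor induced by antigen, had 37.4 and 35.6 CPM in lymphoma, against 248 and 431 CPM in doubly activated libraries (log2 fold -3.22 ± 0.32, adjusted p = 0.000209). NF-kB-activated libraries held 39.8 and 36.6 CPM of Nr4a1, Notch-labelled libraries 67.8 and 80.8 CPM and control libraries 125 and 85.3 CPM. Egr2 and Nr4a2 had log2 fold changes of -2.25 and -5.34. The higher count was 0 with limma-voom, without both Notch-labelled libraries, with an effective length offset, with a replicate block, without lymphoma library 1, without doubly activated library 1 and without doubly activated library 2, and 2 in the 4 compared libraries alone. Egr3 had 15.1 and 12.5 CPM in lymphoma, against 56.4 and 53.1 CPM in doubly activated libraries (log2 fold -1.99 ± 0.12, adjusted p = 4.67e-08). Fos was not called, with 135 and 123 CPM in lymphoma and 286 and 470.0 CPM in doubly activated libraries (log2 fold -1.55 ± 0.51, adjusted p = 0.0501), and was called lower under 7 alternatives, at adjusted p of 0.00416 with DESeq2 to 0.0486 with library size alone. Levels of Fos were 18.9 and 23.2 CPM in NF-kB-activated, 41.6 and 51.3 CPM in Notch-labelled and 230 and 84.2 CPM in control libraries. Egr1 was not called, with 228 and 226 CPM in lymphoma and 83.8 and 115 CPM in doubly activated libraries (log2 fold 1.19 ± 0.57, adjusted p = 0.14), and was called higher in the 4 compared libraries alone (adjusted p = 5.73e-05). The heat shock gene Hspa1a had 1.57 and 0.293 CPM in lymphoma, against 126 and 255 CPM in doubly activated libraries (log2 fold -7.64 ± 2.44, adjusted p = 0.0483), a call lost with no filter on low counts (0.0675), with limma-voom (0.37), without both Notch-labelled libraries (0.0794), with a replicate block (0.0806), without lymphoma library 1 (0.169), without lymphoma library 2 (0.19), without doubly activated library 1 (0.0908) and without doubly activated library 2 (0.127). Within the doubly activated group, 19 of the 21 genes were higher in library 2 than in library 1, by a median log2 ratio of 0.75, against 0.00 over 14572 genes. The part of this spread in the difference between groups was not tested.

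Of 17 genes of the Bcl2 family and survival 7 were called higher and 5 lower, against 26.1% and 25.2% of all genes, at a median of 0.31. Members called higher numbered 4 with an effective length offset. For lower members the count was 3 without lymphoma library 1 and without doubly activated library 1. Mcl1, a survival factor of plasma cells, had 1130 and 1048 CPM in lymphoma, against 678 and 606 CPM in doubly activated libraries (log2 fold 0.76 ± 0.08, adjusted p = 8.39e-06). Bcl2 had 222 and 244 CPM in lymphoma, against 169 and 169.6 CPM in doubly activated libraries (log2 fold 0.46 ± 0.08, adjusted p = 0.000434). The death effector Bax had 161 and 120.3 CPM in lymphoma, against 71.2 and 79.1 CPM in doubly activated libraries (log2 fold 0.90 ± 0.12, adjusted p = 7.88e-05). The death activator Bbc3 (PUMA) had 53.7 and 45.3 CPM in lymphoma, against 17.4 and 20.5 CPM in doubly activated libraries (log2 fold 1.39 ± 0.24, adjusted p = 0.00103). Pmaip1 (NOXA), another activator, had 34.4 and 34.6 CPM in lymphoma, against 79.6 and 112 CPM in doubly activated libraries (log2 fold -1.48 ± 0.25, adjusted p = 0.0012). Bcl2a1b, which has near-identical copies, had a log2 fold change of -1.003. Survival and death genes thus stood on both sides. In the list of lymphoma drivers and tumour suppressors 17 of 27 were called lower and 7 higher, against 25.2% and 26.1% of all genes, a median of -0.60. Cdkn2a, Prdm1 and Ezh2 were the members over 2-fold higher. Among histone and DNA methylation regulators 11 of 21 were called lower and 5 higher, against the same shares of all genes, at a median of -0.23. Hdac7 had a log2 fold change of -0.87. Dnmt3a, a DNA methyltransferase, had 82.6 and 89.0 CPM in lymphoma, against 229 and 230.4 CPM in doubly activated libraries (log2 fold -1.42 ± 0.08, adjusted p = 2.16e-08). Tet1, a DNA demethylase, had 2.22 and 2.49 CPM in lymphoma, against 16.9 and 16.4 CPM in doubly activated libraries (log2 fold -2.82 ± 0.32, adjusted p = 2.37e-05). Kmt2d, a histone methyltransferase lost in many human lymphomas, had 655 and 834 CPM in lymphoma, against 1515 and 1490 CPM in doubly activated libraries (log2 fold -1.01 ± 0.11, adjusted p = 7.08e-06).

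Markers of other cell types were measured because sorted cells can hold neighbours and because transformed B cells can express genes of other lineages. Macrophage and monocyte genes summed to 2288 and 2232 CPM in lymphoma and 734.7 and 602.9 CPM in doubly activated libraries. Of 24 such genes 9 were called higher and 2 lower, against 26.1% and 25.2% of all genes. In lymphoma libraries most of that sum was Mpeg1 and Ctsb, which B cells express too: Mpeg1, a pore-forming protein, had 1051 and 1122 CPM in lymphoma, against 184 and 159 CPM in doubly activated libraries (log2 fold 2.67 ± 0.12, adjusted p = 6.48e-09). The lysosomal protease Ctsb had 538 and 499 CPM in lymphoma, against 173 and 165 CPM in doubly activated libraries (log2 fold 1.61 ± 0.12, adjusted p = 5.37e-07). The macrophage receptor genes Csf1r and Adgre1 were not called, with 6.15 and 4.35 CPM in lymphoma and 6.63 and 3.40 CPM in doubly activated libraries for Csf1r (log2 fold 0.05 ± 0.88, adjusted p = 0.977) and 2.13 and 2.88 CPM in lymphoma and 2.39 and 1.51 CPM in doubly activated libraries for Adgre1 (log2 fold 0.35 ± 0.47, adjusted p = 0.567). Other receptor and adhesion genes of the list were called higher. Vcam1, an adhesion molecule of macrophages and stroma, had 48.1 and 44.7 CPM in lymphoma, against 3.51 and 1.37 CPM in doubly activated libraries (log2 fold 4.21 ± 0.92, adjusted p = 0.0124), a call lost with limma-voom (0.0805), without doubly activated library 1 (0.0539) and without doubly activated library 2 (0.0783). The chemokine receptor gene Ccr2 had 2.22 and 2.79 CPM in lymphoma, against 0.501 and 0.916 CPM in doubly activated libraries (log2 fold 1.83 ± 0.46, adjusted p = 0.00539), a call lost without doubly activated library 1 (0.0617). The integrin gene Itgam (CD11b) had 3.38 and 3.52 CPM in lymphoma, against 0 and 0.785 CPM in doubly activated libraries (log2 fold 3.22 ± 0.98, adjusted p = 0.0308), a call lost with no filter on low counts (0.0746), with limma-voom (0.121), without lymphoma library 1 (0.0806), without lymphoma library 2 (0.0822) and without doubly activated library 1 (0.083). Mrc1, the mannose receptor, had 2.96 and 2.54 CPM in lymphoma, against 0.445 and 0.589 CPM in doubly activated libraries (log2 fold 2.41 ± 0.73, adjusted p = 0.0203), a call lost with limma-voom (0.28), without lymphoma library 1 (0.0804), without lymphoma library 2 (0.0551), without doubly activated library 1 (0.134) and without doubly activated library 2 (0.0885). Cd163, a haemoglobin scavenger receptor, had 0.509 and 0.4398 CPM in lymphoma, against 0.0557 and 0.0654 CPM in doubly activated libraries (7.90-fold higher, exact 95% interval 1.92 to 69.7, adjusted p = 0.0388), a call lost with DESeq2 (0.0523), with limma-voom (0.148), without lymphoma library 1 (0.111), without lymphoma library 2 (0.0788), without doubly activated library 1 (0.156) and without doubly activated library 2 (0.125). Control libraries held 11.7 and 57.4 CPM of Vcam1, 1.29 and 1.36 CPM of Ccr2 and 6.58 and 3.86 CPM of Itgam. They held 4.12 and 19.2 CPM of Mrc1 and 1.54 and 4.90 CPM of Cd163. Mrc1 and Cd163 were lower in lymphoma than in control libraries (log2 fold -2.08 and -2.75, adjusted p = 0.013 and 0.00433). Vcam1, Ccr2 and Itgam were not called between lymphoma and control. Mrc1, Cd163, Vcam1 and Itgam were lower in doubly activated than in control libraries (log2 fold -4.49, -5.60, -3.79 and -3.81, adjusted p = 0.00187, 0.00103, 0.0425 and 0.0334). Ccr2 was not called there. The direction of these macrophage markers in lymphoma thus depended on the group compared, and their part in other results was not tested. Cd68, a lysosomal glycoprotein, had 60.0 and 61.1 CPM in lymphoma, against 10.9 and 8.44 CPM in doubly activated libraries (log2 fold 2.64 ± 0.27, adjusted p = 2.75e-05). Ms4a7 had a log2 fold change of -2.99. The higher count was 5 with limma-voom, and 4 without doubly activated library 1. Members called lower numbered 1 with limma-voom, without lymphoma library 1 and without doubly activated library 2. Of 18 myeloid transcription factors 3 were called higher and 5 lower, against 26.1% and 25.2% of all genes. Spi1 (PU.1) had 43.6 and 44.4 CPM in lymphoma, against 93.7 and 100.9 CPM in doubly activated libraries (log2 fold -1.15 ± 0.11, adjusted p = 2.08e-06). Mitf had 5.37 and 4.89 CPM in lymphoma, against 1.002 and 0.851 CPM in doubly activated libraries (log2 fold 2.46 ± 0.42, adjusted p = 0.00037). Cebpa had 0.278 and 0.342 CPM in lymphoma and 0.668 and 0.0654 CPM in doubly activated libraries (log2 fold -0.295 ± 0.80, adjusted p = 0.79). Irf8 had a log2 fold change of -0.83. For higher members the count was 1 without lymphoma library 2 and without doubly activated library 1.

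Neutrophil genes summed to 26.5 and 27.7 CPM in lymphoma and 18.3 and 10.9 CPM in doubly activated libraries. Among 18 tested members 2 were called higher and 0 lower, both under the shares of all genes (26.1% and 25.2%). The higher count was 5 with DESeq2, and 4 with an effective length offset, and 1 without doubly activated library 1, and 0 without doubly activated library 2. Retnlg, a called member, had 0.925 and 1.22 CPM in lymphoma, against 0.167 and 0 CPM in doubly activated libraries (11.9-fold higher, exact 95% interval 3.80 to 59.6). Padi4, the other, had 1.20 and 0.831 CPM in lymphoma, against 0.111 and 0.0654 CPM in doubly activated libraries (11.3-fold higher, exact 95% interval 3.62 to 57.1). The Retnlg call was lost without doubly activated library 2 (0.0549), and the Padi4 call without lymphoma library 1 (0.0721), without doubly activated library 1 (0.0698) and without doubly activated library 2 (0.088). Chil3 (47.8-fold higher, exact 95% interval 13.0 to 399) and Camp (at least 5.53-fold higher) were higher by counts and not called (adjusted p = 0.0531 and adjusted p = 0.0535), though both were called with DESeq2 and with an effective length offset. Dendritic cell genes summed to 1084 and 950.4 CPM in lymphoma and 185.5 and 219.5 CPM in doubly activated libraries. Of 12 tested, 5 were called higher and 1 lower, against 26.1% and 25.2% of all genes. Ccl22 and Fscn1 made up most of the sum in lymphoma libraries. Fscn1, which bundles actin, had 522 and 459.5 CPM in lymphoma, against 116 and 150.1 CPM in doubly activated libraries (log2 fold 1.89 ± 0.37, adjusted p = 0.00709), a call lost without doubly activated library 1. Bst2, an interferon-induced marker of plasmacytoid cells, had 105 and 79.1 CPM in lymphoma, against 20.9 and 22.3 CPM in doubly activated libraries (log2 fold 2.09 ± 0.22, adjusted p = 6.49e-05), and Ccl17 and Itgax, described above, were called higher too. Batf3, a factor of dendritic cells, was not called, with 1.20 and 1.61 CPM in lymphoma and 0.223 and 0.393 CPM in doubly activated libraries (log2 fold 2.19 ± 0.88, adjusted p = 0.0539), and passed the test under 5 alternatives. Flt3 had 6.85 and 8.36 CPM in lymphoma and 6.35 and 7.72 CPM in doubly activated libraries (log2 fold 0.11 ± 0.298, adjusted p = 0.783). Clec9a held at most 3 counts in either group, and the factor Zbtb46 had 14.4 and 16.03 CPM in lymphoma, against 27.5 and 30.2 CPM in doubly activated libraries (log2 fold -0.92 ± 0.18, adjusted p = 0.00107). Dendritic markers thus stood on both sides, and their part in the Ccl22 difference was not tested.

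T cell genes summed to 1161 and 1087 CPM in lymphoma and 115.1 and 91.3 CPM in doubly activated libraries. Yet 5 of 20 were called higher and 7 lower, against 26.1% and 25.2% of all genes. Their median log2 fold change was -0.50. Thy1 had 879 and 830.2 CPM in lymphoma, against 3.84 and 1.24 CPM in doubly activated libraries (log2 fold 8.34 ± 0.33, adjusted p = 5.13e-07). Cd8b1 had 181 and 162 CPM in lymphoma, against 2.28 and 1.31 CPM in doubly activated libraries (log2 fold 6.55 ± 0.18, adjusted p = 8.88e-11). These genes made up most of the sum in lymphoma libraries. The other members called higher were Tcf7, described with the Notch targets, the inhibitory receptor gene Cd5 (log2 fold 1.13) and the costimulatory receptor gene Cd28 (log2 fold 1.35, a call lost without lymphoma library 1 (0.0874), without doubly activated library 1 (0.0918) and without doubly activated library 2 (0.0513)). Cd8a, the gene of the chain that pairs with Cd8b1, was not called, with 4.26 and 4.79 CPM in lymphoma and 4.29 and 2.55 CPM in doubly activated libraries (log2 fold 0.39 ± 0.32, adjusted p = 0.324). Cd3e, a chain of the T cell receptor complex, had 0.370 and 0.929 CPM in lymphoma, against 2.28 and 1.37 CPM in doubly activated libraries (log2 fold -1.500 ± 0.52, adjusted p = 0.0299), a call lost without lymphoma library 1 (0.201) and without doubly activated library 1 (0.205). The kinase Zap70 had 1.67 and 0.635 CPM in lymphoma, against 16.8 and 18.8 CPM in doubly activated libraries (log2 fold -3.93 ± 0.303, adjusted p = 4.24e-07). Cd3d, another such chain, had a log2 fold change of -1.66, a call lost without lymphoma library 2 (0.0664) and without doubly activated library 2 (0.0548), and Trac, the receptor constant gene, of -0.39. Thy1 and Cd8b1 were thus high in libraries where Cd3e was below 1 CPM. Notch-labelled libraries also held 257 and 248 CPM of Thy1 and 35.2 and 31.55 CPM of Cd8b1. Control libraries held 6.89 and 7.83 CPM of Thy1 and 3.63 and 3.155 CPM of Cd8b1.

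NK cell genes summed to 29.7 and 28.8 CPM in lymphoma and 43.0 and 32.8 CPM in doubly activated libraries. Of 10 tested, 1 was called higher and 3 lower, against 26.1% and 25.2% of all genes. Prf1 had 2.54 and 2.88 CPM in lymphoma, against 17.7 and 17.2 CPM in doubly activated libraries (log2 fold -2.68 ± 0.21, adjusted p = 4.48e-07). Il2rb was the member called higher, with a log2 fold change of 1.46, Tbx21 had -1.87, and Gzma was 29.1-fold lower, exact 95% interval 4.73 to 1199. Stroma and endothelium genes summed to 83.5 and 81.1 CPM in lymphoma and 232.6 and 250.2 CPM in doubly activated libraries. Among 13 tested members 2 were called higher and 3 lower, both under the shares of all genes (26.1% and 25.2%). The median was -0.26 as fitted and 0.000 with bounds. Pecam1, which B cells also express, made up most of the sum, with 58.2 and 53.1 CPM in lymphoma, against 207 and 224 CPM in doubly activated libraries (log2 fold -1.95 ± 0.08, adjusted p = 1.98e-09). The fibroblast gene Dcn was at 0 in all 4 libraries, and Col1a1 had 1.30 and 1.22 CPM in lymphoma and 1.45 and 0.981 CPM in doubly activated libraries (log2 fold 0.03 ± 0.37, adjusted p = 0.957). Pdgfrb had 2.17 and 2.05 CPM in lymphoma and no count in doubly activated libraries (at least 23.4-fold higher), Cdh5 had a log2 fold change of 2.45, and Vwf of -1.39. Erythroid and platelet genes summed to 82.9 and 69.7 CPM in lymphoma and 19.2 and 4.06 CPM in doubly activated libraries. Of 8 tested, 3 were called higher and 0 lower, against 26.1% and 25.2% of all genes. Members called higher numbered 5 without doubly activated library 1. The called members Itga2b and Slc4a1 had log2 fold changes of 1.66 and 3.32, and the Slc4a1 call was lost with no filter on low counts (0.0613), with limma-voom (0.0514), with an effective length offset (0.0674), without lymphoma library 1 (0.053), without lymphoma library 2 (0.0862) and without doubly activated library 2 (0.0646). Alas2 was not called (log2 fold 1.27 ± 0.50, adjusted p = 0.0518). Hba-a1, the other called member, which shares reads with a near-identical copy, had 19.98 and 15.7 CPM in lymphoma, against 1.11 and 0 CPM in doubly activated libraries (log2 fold 4.91 ± 0.96, adjusted p = 0.00454).

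**Figure D5:**
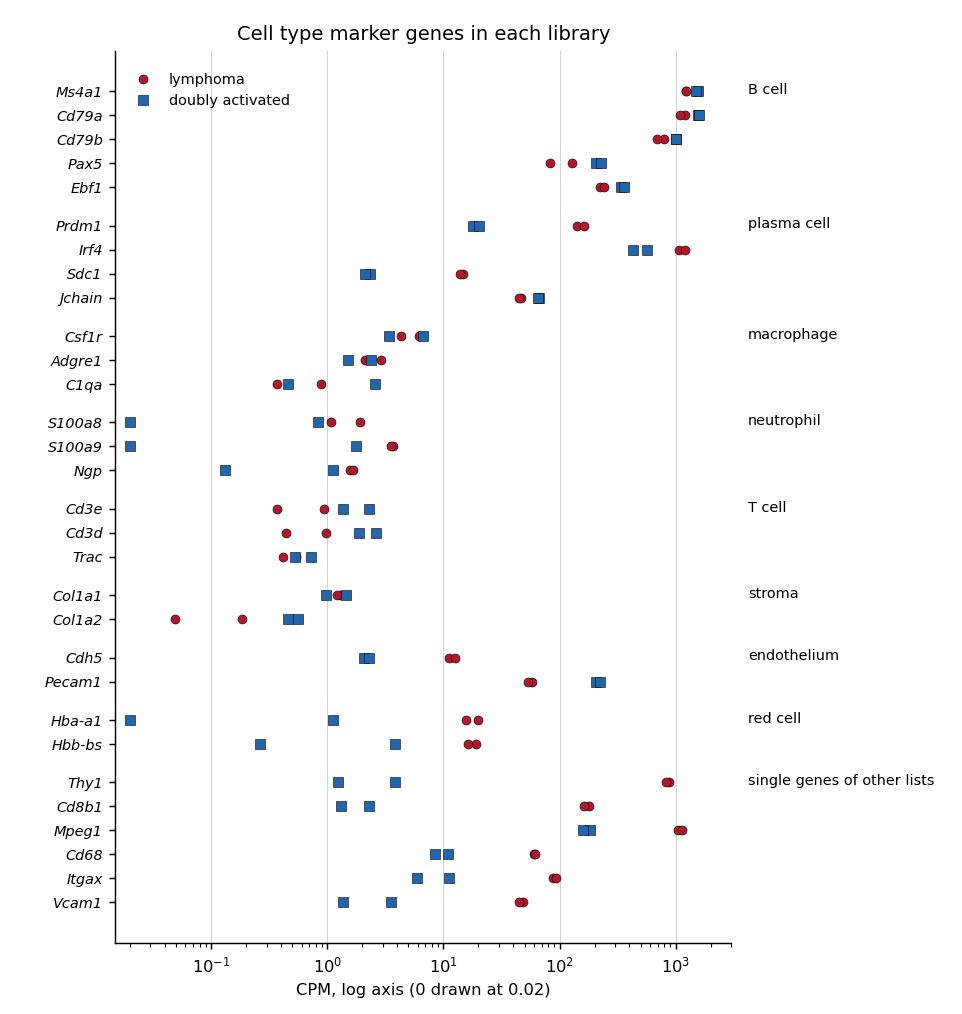
Levels of marker genes of B cells, plasma cells and other cell types (CPM, log scale, 0 drawn at 0.02) in the 2 lymphoma and 2 doubly activated libraries, grouped by cell type. Thy1, Cd8b1 and Mpeg1 are high in lymphoma, while Cd3e, Csf1r and Adgre1 stay below 10 CPM in all 4 libraries.

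The largest rises and falls, outside predicted, immunoglobulin and T cell receptor genes, involved genes at or near 0 on the other side. Among the 12 largest rises, Efcab3, an EF-hand gene, had 28.4 and 24.8 CPM in lymphoma and no count in doubly activated libraries (at least 295-fold higher, adjusted p = 9.6e-08), and 12.3 and 12.1 CPM in Notch-labelled libraries. Erich3 (at least 157-fold higher), Ptpn3, a tyrosine phosphatase (at least 96.6-fold higher), and Nme9 (at least 110.3-fold higher) were likewise without a count in doubly activated libraries. Nme9 was also at 0 in NF-kB-activated, Notch-labelled and control libraries. Pde6a, the phosphodiesterase of rod cells, had 385 and 351 CPM in lymphoma, against 0.390 and 0.131 CPM in doubly activated libraries (log2 fold 10.38 ± 0.26, adjusted p = 2.08e-10). Cx3cl1 was described with Ccl22. The myeloid receptor Cd300c had 6.75 and 8.01 CPM, the secreted activin chain Inhbe 5.74 and 7.67 CPM and the ciliary gene Evc2 6.80 and 5.08 CPM in lymphoma libraries, all without a count in doubly activated libraries. Prrt2 had 30.7 and 35.5 CPM in lymphoma, against 0.111 and 0 CPM in doubly activated libraries (549.5-fold higher, exact 95% interval 152 to 4541). All of these genes were at or near 0 in both doubly activated libraries.

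Among the 12 largest falls, besides Ccr6 and Hspa1a, the transcription factor gene Zfp608 had 0.0463 and 0.0977 CPM in lymphoma, against 69.3 and 71.8 CPM in doubly activated libraries (988-fold lower, exact 95% interval 338 to 4795). Bhlhe40, a transcription factor of activated lymphocytes, had 2.22 and 1.12 CPM in lymphoma, against 261 and 436 CPM in doubly activated libraries (log2 fold -7.69 ± 0.43, adjusted p = 1.16e-05), and 82.8 and 58.7 CPM in control libraries. The cannabinoid receptor gene Cnr1 had 0.139 and 0.147 CPM in lymphoma, against 50 and 36.7 CPM in doubly activated libraries (log2 fold -8.19 ± 0.32, adjusted p = 3.81e-09). Cnr1 was at 146 and 192 CPM in NF-kB-activated libraries and 0.246 and 0.218 CPM in control libraries. The lipid enzyme gene Lpcat2 (373-fold lower, exact 95% interval 127 to 1810), Nhs (589-fold lower, exact 95% interval 105 to 23298), Xlr4a (274-fold lower, exact 95% interval 75.4 to 2270) and Tmem121 (279-fold lower, exact 95% interval 49.5 to 11049) held at most 3 counts over both lymphoma libraries. The remaining 3 falls were of pseudogenes, Rab11b-ps2, Rbx1-ps and Rpl17-ps8, whose counts are uncertain because they can share reads with their parent genes; the call of Rpl17-ps8 was lost with limma-voom (0.053).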

How the data were processed

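RNA of sorted mouse B cells was sequenced in 10 libraries of 5 groups. The deposited tables give estimated counts and TPM per transcript, which the authors made with kallisto 0.44.0 on mm10, per the submitters' processing notes. Which transcript release they used is not stated. Of 88198 transcripts, 86031 matched GRCm38 gene models and were summed to 30205 genes, while 2167 did not match and held 1.086% to 1.377% of a library's estimated counts. Totals of 16380889 to 23102081 counts per library set the precision.

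Counts were rounded and fitted in all 10 libraries with edgeR 4.0.16 in R 4.3.3 (filterByExpr, TMM, robust quasi-likelihood F test, two-sided, 5 residual degrees of freedom), and p-values were adjusted by Benjamini-Hochberg over 15583 genes and called under 0.05. CPM use TMM library sizes. Simulated counts of 14965 genes were drawn with the spread fitted to these libraries, and 50 genes were changed at each fold. Genes at low counts were left unchanged. Recovery was 32% at 1.5-fold, 72% at 2-fold and 94% at 4-fold, and 5.13% of calls were false. In the real comparison 51.3% of genes were called, so these rates need not hold there.

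The comparison, the gene lists and the alternatives were chosen with earlier results of these data known. Named genes are the 12 largest rises and 12 largest falls that averaged 5 CPM or more in 1 group and did not overlap between groups, without predicted, immunoglobulin, T cell receptor and Y-linked genes and Xist; the 4 tested members of each list with the smallest p; Map3k14, Notch2 and Heyl; Xbp1, Ccl22 and Creld2; and cell type markers. Other named genes were chosen after their values were seen. Alternatives changed the normalization, filter, tool (DESeq2 1.42.0, limma 3.58.1), libraries, length offset, minimum fold, replicate block and libraries left out in turn. Promoters come from RefSeq (GRCm38.p6). Some genes are not reported here.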

Additional observations from a re-analysis of the deposited data

How the results depend on the processing

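The 4065 genes called higher and 3923 called lower stayed within 1.5 times these counts in 15 of 16 alternatives. The exception required a change over 1.5-fold and called 2038 genes higher and 1771 lower. Leaving out each of the 4 compared libraries in turn gave 3233 to 3519 higher and 3242 to 3362 lower. Differences between library 1 and library 2 correlated little between groups (-0.107 to 0.0863 over 10 pairs of groups). The labels do not say what same-numbered libraries share. These correlations cannot decide it, because a weak shared factor would leave little correlation. With a replicate block 3885 genes were called higher and 3750 lower. Of 263 called genes followed through the alternatives, 231 kept their call and direction wherever they were tested among the 15 other than the minimum fold. Immunoglobulin genes were not tested in the fit without receptor genes, and a gene absent from a fit was not counted as lost there.

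The log2 fold changes below changed sign under an alternative. Dnajb9 (0.002) was at -0.009 with RLE factors, -0.013 with a CPM filter, -0.010 with DESeq2, -0.015 in the 4 compared libraries alone, -0.013 without receptor genes, -0.010 with the replicate block, -0.04 without lymphoma library 2 and -0.29 without doubly activated library 1. Cycs (0.78, called) was at -0.18 and Ikzf1 (0.09) at -0.005 with an effective length offset, and Cebpa (-0.30) at 0.27 with limma-voom. Over the 4 fits that each left out a library, the lowest and highest values were -0.34 and 0.62 for Csf1r, -2.05 and 0.43 for C1qa, -0.20 and 0.35 for Col1a1, -0.22 and 0.18 for Atf4, -0.47 and 0.14 for Ddit3, -0.23 and 1.03 for Ighg2b, -4.21 and 2.20 for Fcgr1, -0.058 and 0.093 for H2-Aa, -0.13 and 0.07 for H2-Eb1, -1.10 and 2.13 for Cebpa and -0.036 and 0.26 for Flt3. The cause was not tested. At these depths, a gene with at most 3 counts in a group has only a bound or a counting interval.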

Other observations

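Immunoglobulin genes held 3.88% and 3.73% of estimated counts in lymphoma libraries and 0.853% and 0.816% in doubly activated libraries, and mitochondrial genes 3.45% and 3.43% in lymphoma and 3.51% and 3.33% in doubly activated libraries. Over 10356 genes with a mean of at least 5 CPM, the median log2 fold change per chromosome ran between -0.09 on chromosome 16 and 0.10 on chromosome 13 over chromosomes 1 to 19 and X. Transcripts that matched no gene model held 6.11% and 4.04% of TPM in lymphoma libraries and 2.75% and 2.90% in doubly activated libraries.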
